A study of Mus musculus with 454 samples.

Results

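The genes described here are 10 members of the circadian clock: Per2, Per3, Cry1, Cry2, Nr1d1, Nr1d2, Ciart, Bhlhe41, Dbp and Tef. They were chosen by name, as repressors and outputs of the clock, from the 43346 genes of the count table. Earlier results of these data were known at that point. All 10 passed the filter on low counts in each of 4 brain regions. In the mammalian clock, CLOCK and BMAL1 (the product of Arntl) bind E-box sequences and drive the Per and Cry genes, whose proteins return to the nucleus and repress CLOCK and BMAL1. Nr1d1 and Nr1d2 encode the REV-ERB nuclear receptors, which repress Arntl through ROR elements, and Ciart and Bhlhe41 encode further repressors that act at E-boxes. Dbp and Tef encode PAR bZIP factors, clock outputs that carry the rhythm to genes with D-box sequences. These transcripts cycle over the day in many mouse tissues, the brain included, and Per2 can also be induced by neuronal activity. The labels give no time of day, so no phase could be read for any library.

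RNA-seq was run on 454 mouse libraries labelled AMY (115 libraries, amygdala), Nac (112, nucleus accumbens), PFC (112, prefrontal cortex) and VTA (115, ventral tegmental area). The mice were female or male, socially isolated or group-housed, and received cocaine at 7.5 mg/kg or saline on a chronic or an acute schedule, which gave 16 groups in each region with 5 to 8 libraries each. The sources used here do not give strain, age at collection, the length of the chronic schedule or the time from the last dose to collection. The title of the series names adolescent social isolation and the medial amygdala. Nothing in the labels says whether the libraries of a group came from separate mice, so p-values measure the spread between these libraries, part of which may be technical.

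Each title joins a letter for the region with a number, and most numbers recur across regions: of 129 numbers, 86 were found in all 4 regions, 29 in 3, 9 in 2 and 5 in 1. The labels do not say that a number stands for 1 mouse. The numbers fall into 4 series, in the 500s, 1000s, 1100s and 1200s, and within them into 23 blocks that share all but the last digit, written here with x in its place (block 114x). Chronic cocaine holds 24 numbers of series 1000 and 8 of series 1200, and chronic saline holds 14 of series 500 and 19 of series 1200. Acute cocaine holds 17 of series 1000 and 16 of series 1100, and acute saline holds 15 and 16 of the same series. Chronic and acute saline therefore share no series, chronic and acute cocaine share series 1000, and chronic cocaine and chronic saline share series 1200. Library totals ran from 11.21 to 52.34 M counts, with a median of 21.72 M. By principal components or by marker genes of other tissues, 20 libraries stood apart from their region (7 in VTA, 6 in Nac, 4 in AMY and 3 in PFC). Among libraries labelled female, 3 held transcripts of Y-linked genes at 5% or more of the male median of their region: A1030 of AMY (5.87%) and N1062 (8.47%) and N1094 (35%) of Nac, named here by their titles. Group differences and co-variation were recomputed without libraries of either kind. Without the 3 libraries, the members kept the same calls in AMY and Nac. These were 8 for chronic minus acute saline, 7 for chronic minus acute cocaine, 1 for chronic cocaine minus chronic saline and 0 for female minus male. Defining markers followed the labels: the median of the mean log2 CPM was 7.97 in VTA for dopamine neuron markers (0.03 to 0.79 in the other regions), 8.64 in Nac for striatal markers (3.61 to 4.93), 6.87 in PFC for cortical glutamatergic markers (0.02 to 3.47) and 3.71 in AMY for markers of medial amygdala and hypothalamus (0.12 to 0.64).

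The 10 genes lie on 10 chromosomes (GRCm38, GENCODE M21 annotation). Among the period and cryptochrome genes, Per2 spans chr1:91415982-91459324, Cry2 chr2:92403646-92434043, Per3 chr4:151003652-151044665 and Cry1 chr10:85131700-85185064, all on the minus strand. Of the other repressors, Ciart spans chr3:95878503-95882251, Bhlhe41 chr6:145858243-145865558, Nr1d1 chr11:98767932-98775333 and Nr1d2 chr14:18204054-18239127, also on the minus strand. The output genes Dbp (chr7:45705088-45710203) and Tef (chr15:81802421-81826863) lie on the plus strand. Part of the Dbp span is shared with Sphk2 on the opposite strand (737 bases), part of Nr1d1 with Thra, and all 3749 bases of Ciart with the non-coding gene C920021L13Rik. Cry2, Bhlhe41 and Tef also overlap a gene on the opposite strand, and Per3 shares 41014 bases with Camta1 on its own strand. The sources used here do not give the strand setting of the counting, so reads from such pairs cannot be told apart and counts of these 7 genes carry that uncertainty.

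RefSeq promoter entries on GRCm38.p6, each from 250 bases before the annotated start to 50 after it, were found for 9 of the 10 genes (10 entries, since Tef has 2); Per2 had none. They were searched on both strands for the E-box CACGTG, the E'-box CACGTT, the D-box (TTATGTAA or TTATGCAA) and the ROR element, and no hits overlapped. An E-box was found in 5 of the 10 entries, those of Cry1, Ciart, Bhlhe41 and both of Tef, against 7.15% of all 32851 promoter entries. An E'-box was found in 3 entries (Cry1, Cry2 and Nr1d1), against 4.68% of all entries, a D-box in 1 (Per3), against 1.66%, and a ROR element in 0, against 0.384%. The stretch of 250 bases before the start is printed for Ciart and Cry1, which hold E-boxes and co-varied between regions, for Per3, which holds the D-boxes, and for Dbp, which changed with schedule in every region and had none of the 4 motifs in this window. All are written 5' to 3' along the gene, with motif hits in capitals. They are Ciart at chr3:95882229-95882478 (minus strand), with E-boxes that begin 116, 58 and 44 bases before the start; Cry1 at chr10:85185055-85185304 (minus strand), with an E'-box at 79 (AACGTG on this strand) and an E-box at 60; Per3 at chr4:151044666-151044915 (minus strand), with D-boxes at 205 and 158; and Dbp at chr7:45704997-45705246 (plus strand).
Ciart: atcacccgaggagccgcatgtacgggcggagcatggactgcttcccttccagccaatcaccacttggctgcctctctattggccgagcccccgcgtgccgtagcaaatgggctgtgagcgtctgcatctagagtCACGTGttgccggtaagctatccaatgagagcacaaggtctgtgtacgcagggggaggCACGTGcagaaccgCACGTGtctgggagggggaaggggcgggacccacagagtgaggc
Cry1: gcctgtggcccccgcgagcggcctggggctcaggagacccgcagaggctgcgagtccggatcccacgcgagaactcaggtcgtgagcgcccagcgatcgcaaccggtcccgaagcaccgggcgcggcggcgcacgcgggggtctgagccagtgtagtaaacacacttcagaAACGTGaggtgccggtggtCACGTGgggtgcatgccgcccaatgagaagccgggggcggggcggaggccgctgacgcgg
Per3: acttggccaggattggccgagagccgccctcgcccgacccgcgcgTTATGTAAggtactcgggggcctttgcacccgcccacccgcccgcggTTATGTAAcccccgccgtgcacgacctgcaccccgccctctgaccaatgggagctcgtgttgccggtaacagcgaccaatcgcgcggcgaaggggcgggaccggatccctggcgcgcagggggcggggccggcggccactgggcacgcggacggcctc
Dbp: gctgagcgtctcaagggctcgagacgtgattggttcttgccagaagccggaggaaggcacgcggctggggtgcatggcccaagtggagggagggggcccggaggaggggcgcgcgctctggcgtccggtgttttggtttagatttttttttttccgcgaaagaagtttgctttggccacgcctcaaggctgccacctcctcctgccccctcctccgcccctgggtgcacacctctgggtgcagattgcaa
A motif match describes the letters of these windows and is not a measured binding site.

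Levels are given in CPM (counts scaled to a common library total), a level per library that is not corrected for gene length and so is not compared between genes. Of the 10 genes, 8 had their highest mean in Nac and 8 their lowest in VTA. Dbp averaged 66.2 ± 16.2 CPM in Nac (SD, n = 112), 34.8 ± 7.02 in PFC (n = 112), 32.9 ± 7.04 in AMY (n = 115) and 26.6 ± 6.09 in VTA (n = 115). Per2 averaged 61.9 ± 13.5 CPM in Nac, 57.8 ± 13.3 in PFC, 42.5 ± 8.0 in AMY and 24.5 ± 5.33 in VTA. Over all pairs of regions, 57 of 60 differences passed the test, which was edgeR's quasi-likelihood test at a threshold of 0.05 on p-values adjusted by Benjamini-Hochberg over all genes tested, used for every adjusted p of a difference here. This is a description of genes that differ between regions as most do: the share of all genes that passed was 83.7% for AMY against Nac, 80.2% for AMY against PFC, 86.7% for AMY against VTA, 85.4% for Nac against PFC, 90.2% for Nac against VTA and 88.9% for PFC against VTA. The exceptions were Per3 in AMY against Nac (log2 difference -0.05, SE 0.04), Ciart in AMY against VTA (0.02, SE 0.04) and Per2 in Nac against PFC (0.05, SE 0.04).

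The order of regions was not the same for all members. Bhlhe41 was lowest in PFC, at 26.6 ± 3.48 CPM, against 64.3 ± 11.2 in Nac (log2 Nac minus PFC 1.20, SE 0.03, adjusted p = 3.97e-120). Nr1d1 was highest in PFC, at 98.2 ± 10.8 CPM, against 53.6 ± 6.02 in VTA (PFC minus VTA 0.97, SE 0.03, adjusted p = 8.21e-110). Cry1 was higher in Nac, at 31.3 ± 4.53 CPM, than in the other regions, where its means were at most 17.0. Nr1d2 lay between 113 ± 8.78 CPM in AMY and 138 ± 10.9 in Nac (AMY minus Nac -0.31, SE 0.02). Within a region, the coefficient of variation over libraries was 20.2 to 24.5% for Dbp and 18.8 to 22.9% for Per2, against 5.76 to 8.62% for Cry2. Tissue was measured in bulk, so fewer cells of a type and less RNA per cell cannot be told apart in any of these values.

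Schedule gave more passing tests among the members than treatment, sex or housing did. With chronic against acute treatment, Dbp rose in all 4 regions under both saline and cocaine, Per2 fell in all 4 regions under saline and in 3 of 4 under cocaine, and Ciart rose in 3 regions under saline and 2 under cocaine. Of the 40 tests (10 genes in 4 regions), 20 passed for chronic saline minus acute saline, 12 higher and 8 lower: 6 in VTA, 6 in PFC, 5 in Nac and 3 in AMY. Among all genes, 43.6% passed in VTA (21.4% higher and 22.2% lower), 23.3% in PFC (12% and 11.3%), 20.9% in Nac (11% and 9.86%) and 20.4% in AMY (9.27% and 11.1%). For chronic cocaine minus acute cocaine 14 of 40 passed, 10 higher and 4 lower: 4 in VTA, 3 in PFC, 5 in Nac and 2 in AMY. Here 38.2% of all genes passed in VTA (18.2% higher and 20% lower), 18.5% in PFC (9.89% and 8.66%), 24.3% in Nac (13.4% and 10.9%) and 18.4% in AMY (8.64% and 9.75%). A large share of all genes thus differed between schedules, and in AMY and VTA the share of members that passed with cocaine was near that of all genes. The median over the 10 members lay between -0.06 and 0.10 on the log2 scale in each region and comparison, since members moved both ways.

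Dbp is an output gene that CLOCK and BMAL1 drive directly. In VTA its lowest, median and highest levels were 18.2, 29.5 and 38.6 CPM with chronic cocaine, 23.6, 29.9 and 46.8 with chronic saline, 14, 22.5 and 30.8 with acute cocaine and 15.6, 22.2 and 30.9 with acute saline. In Nac the same values were 49.8, 74.1 and 114 CPM with chronic cocaine, 50.4, 77.9 and 101 with chronic saline, 27.7, 58.9 and 86.2 with acute cocaine and 27.4, 54.3 and 79.2 with acute saline. In both regions every median with chronic treatment stood above both acute medians, and the ranges overlapped. The log2 difference of chronic minus acute saline in VTA was 0.45 (SE 0.07), with an adjusted p of 9.53e-08, and in Nac 0.49 (SE 0.08), with an adjusted p of 6.19e-06. In AMY it was 0.41 (SE 0.07), with an adjusted p of 8.99e-07, and in PFC 0.27 (SE 0.06), with an adjusted p of 0.000876. With cocaine the difference was 0.33 (SE 0.07) in VTA, 0.38 (SE 0.08) in Nac, 0.31 (SE 0.07) in AMY and 0.37 (SE 0.06) in PFC, with adjusted p from 2.67e-06 to 0.000328. In AMY and PFC, too, both chronic medians stood above both acute medians: 35.0, 37.6, 28.7 and 28.4 CPM in AMY for chronic cocaine, chronic saline, acute cocaine and acute saline, and 38.4, 37.6, 31.3 and 31.2 in PFC.

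Per2, the period repressor that is also an activity-induced gene, went the other way. In PFC its lowest, median and highest levels were 35.6, 50.9 and 78.9 CPM with chronic cocaine, 33.1, 45.7 and 52.9 with chronic saline, 50.1, 65.2 and 89.5 with acute cocaine and 42.9, 66.7 and 79.6 with acute saline. In VTA they were 15.7, 21.1 and 25.7 CPM with chronic cocaine, 11, 20.3 and 25.1 with chronic saline, 20.6, 26.5 and 42.4 with acute cocaine and 23.0, 27.6 and 38.5 with acute saline. The saline groups of VTA overlapped only between 23.0 and 25.1 CPM. Chronic minus acute saline in PFC was -0.58 (SE 0.06), with an adjusted p of 1.2e-12, and in VTA -0.50 (SE 0.05), with an adjusted p of 4e-13. In AMY it was -0.44 (SE 0.05), with an adjusted p of 6.03e-11, and in Nac -0.29 (SE 0.08), with an adjusted p of 0.00466. Under cocaine the difference in VTA was -0.39 (SE 0.05), in PFC -0.31 (SE 0.06) and in AMY -0.28 (SE 0.05), with adjusted p from 2.73e-09 to 4.11e-05, but in Nac it was 0.03 (SE 0.08), with an adjusted p of 0.766. In Nac the medians were 60.9 CPM with chronic cocaine, 53.3 with chronic saline, 66.0 with acute cocaine and 63.5 with acute saline.

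**Figure D1:**
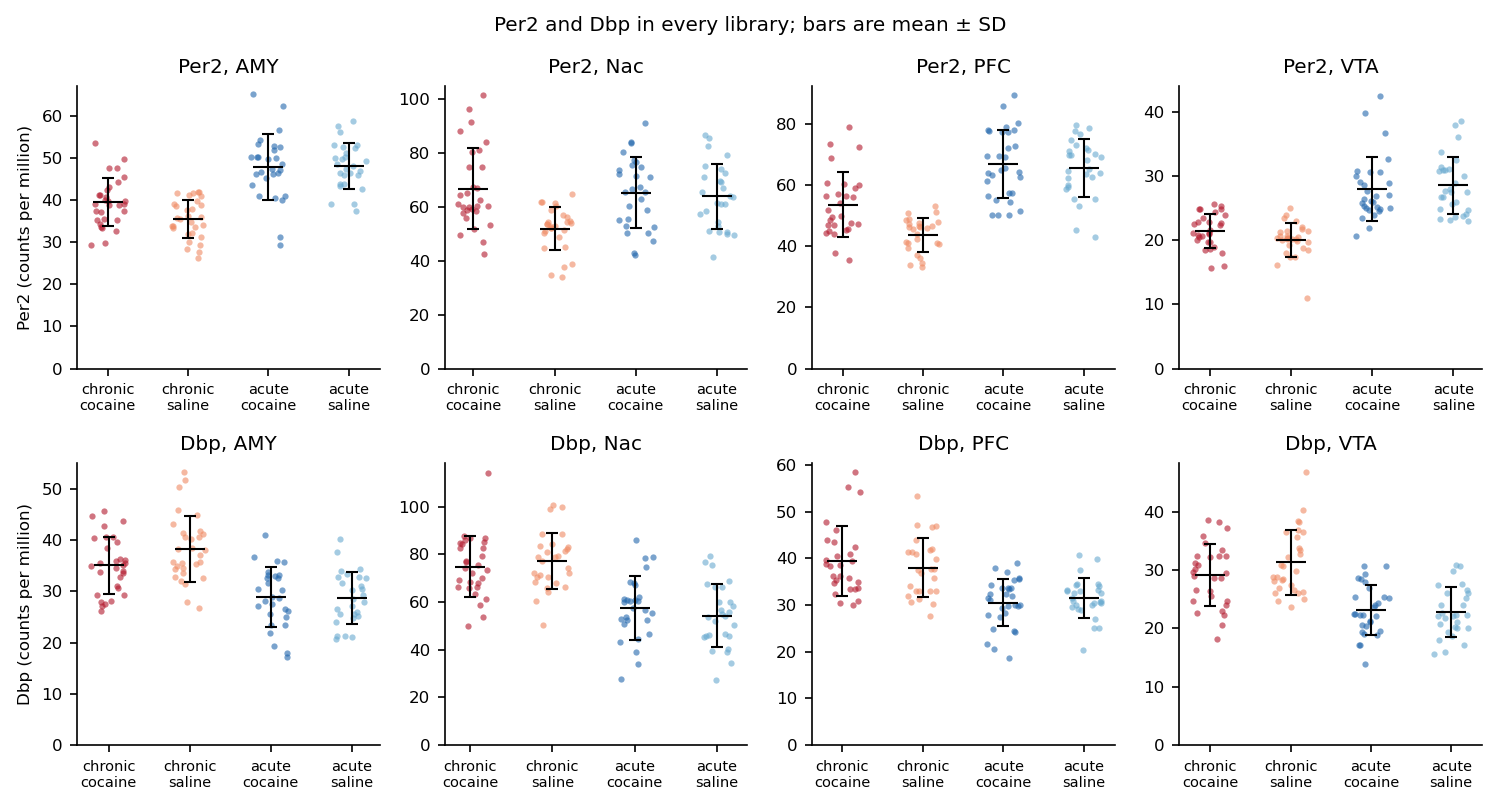
Per2 (upper row) and Dbp (lower row) in CPM in each library, by region and condition, with 1 point per library and bars for the mean ± SD. Per2 sits lower and Dbp higher in the chronic groups than in the acute groups in VTA, with medians of 21.1 and 20.3 CPM for Per2 with chronic cocaine and saline, against 26.5 and 27.6 with acute cocaine and saline.

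Ciart, a repressor that binds BMAL1, was the third member that passed in several regions. Chronic minus acute saline in Nac was 0.36 (SE 0.06), with an adjusted p of 1e-05, in VTA 0.27 (SE 0.06), with an adjusted p of 0.000358, and in AMY 0.23 (SE 0.06), with an adjusted p of 0.00205, but in PFC it was 0.08 (SE 0.07), with an adjusted p of 0.408. Under cocaine the difference in Nac was 0.19 (SE 0.06), with an adjusted p of 0.0139, and in VTA 0.18 (SE 0.06), with an adjusted p of 0.0143; it was 0.05 in AMY and -0.03 in PFC. In Nac its lowest, median and highest levels were 11.4, 15.2 and 23.2 CPM with chronic cocaine, 13.2, 16.8 and 21.8 with chronic saline, 9.33, 13.5 and 17.7 with acute cocaine and 9.84, 13.1 and 18.6 with acute saline, so all 4 conditions overlapped.

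The other members changed less and not in the same direction everywhere. Nr1d1, the REV-ERB alpha repressor, rose with chronic saline in Nac (0.19, SE 0.06, adjusted p = 0.0154) and VTA (0.10, adjusted p = 0.0411) and with chronic cocaine in Nac (0.18, adjusted p = 0.0184). Cry2, a cryptochrome, fell in PFC under saline (-0.09, adjusted p = 0.000997) and cocaine (-0.09, adjusted p = 0.000923), rose in VTA under both (0.06 in each), and rose in Nac with cocaine (0.09, adjusted p = 0.0216). Cry1, its close relative, fell with chronic saline in PFC (-0.15, adjusted p = 0.0076) and VTA (-0.09, adjusted p = 0.0302). Per3 rose with chronic cocaine in Nac (0.29, SE 0.07, adjusted p = 0.00122) and with chronic saline in PFC (0.16, adjusted p = 0.0381), Bhlhe41 rose with chronic saline in Nac (0.24, adjusted p = 0.00157), and Tef fell with chronic saline in PFC (-0.07, adjusted p = 0.0255). In Nac, Per3 with chronic cocaine had a lowest, median and highest level of 47.5, 66.2 and 172 CPM. Nr1d2 passed in none of its 8 tests, with differences from -0.06 to 0.07. Without the libraries that stand apart, Per3 in PFC with saline (0.12, adjusted p = 0.0923) and Cry2 in VTA with cocaine (0.04, adjusted p = 0.0826) no longer passed, while Nr1d1 in AMY did with saline (0.11, adjusted p = 0.0423) and cocaine (0.12, adjusted p = 0.0288); the other 19 calls with saline and 13 with cocaine were kept.

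**Figure D2:**
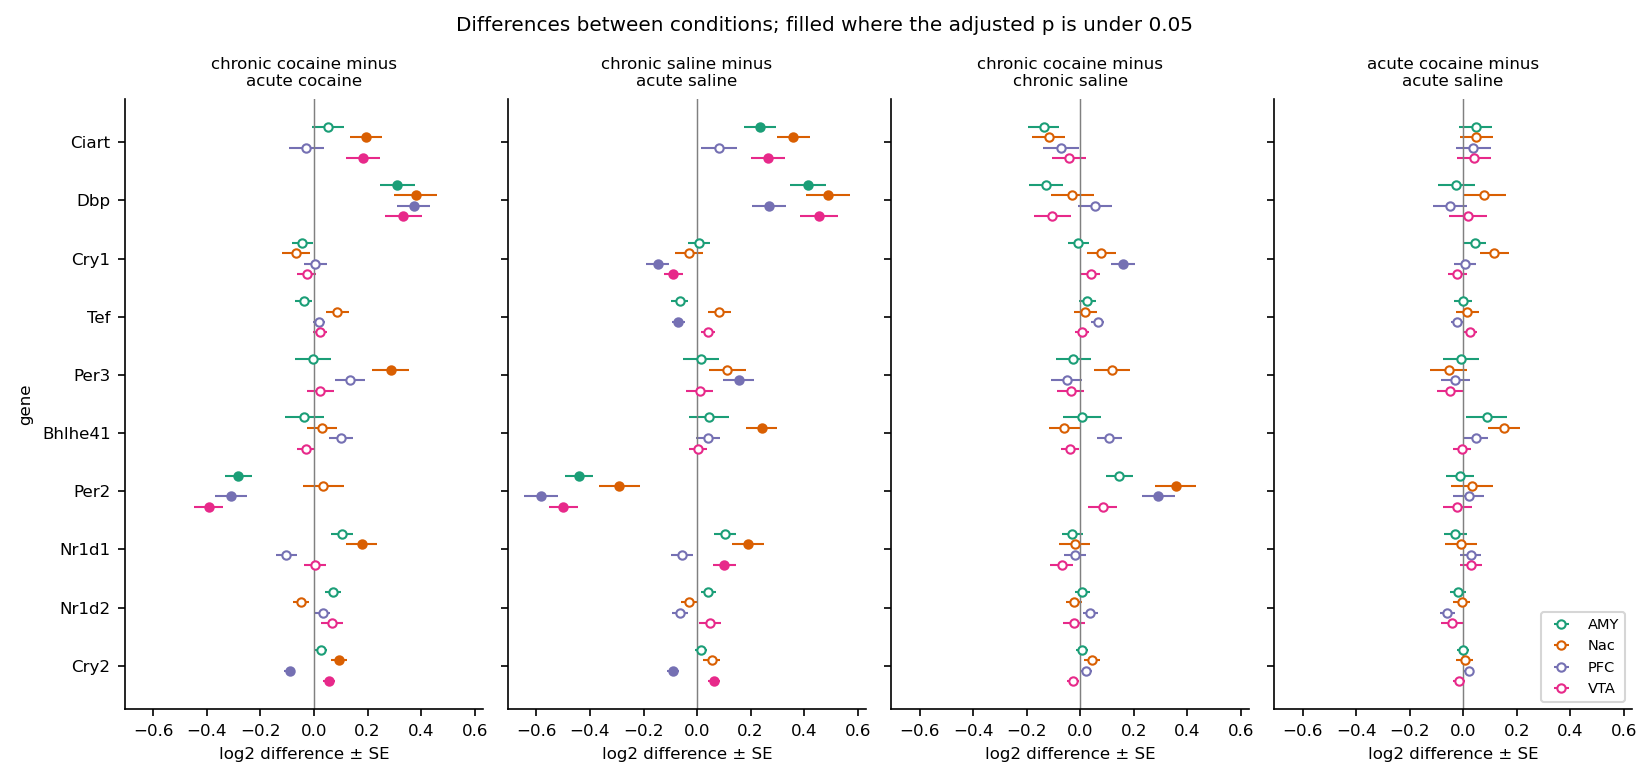
Log2 difference ± SE of the 10 genes in each region for 4 comparisons, as fitted by edgeR, with points filled where the adjusted p is under 0.05. Dbp is right of 0 and filled in all 4 regions in both schedule comparisons (0.27 to 0.49), Per2 is left of 0 except in Nac with cocaine, and no point is filled for acute cocaine against saline.

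Number series limits what these schedule differences can be tied to. Chronic and acute saline share no series, so schedule and series cannot be told apart in the saline comparison, and with series as a term in the model 3 of 40 tests passed instead of 20. These were Per2 in AMY (-0.46, adjusted p = 0.0125) and VTA (-0.57, adjusted p = 0.0002), and Ciart in PFC at -0.56 (adjusted p = 0.000928), opposite in sign to its 0.08 without the term. Dbp lay at 0.05 to 0.23 under that term and passed in 0 of 4 regions. The term links the series of chronic saline to those of acute saline only through chronic cocaine libraries of series 1000 and 1200. The saline values under it therefore assume that series differ alike with saline and cocaine. The share of all genes that passed under the term, or within series 1000 alone, is not given here. Calls lost by members therefore cannot be set against calls lost by other genes. Chronic and acute cocaine share series 1000, and there the comparison could be made within 1 series. Series 1000 holds a single acute cocaine block for each housing, and no block there holds both schedules. Schedule and block therefore cannot be told apart within that series. Dbp passed in all 4 regions within series 1000, at 0.24 to 0.30, and Per2 passed in 3, at -0.33 in VTA, -0.28 in AMY and -0.27 in PFC, with 0.11 in Nac. With series as a term, the cocaine comparison likewise kept Dbp in 4 regions (0.20 to 0.32) and Per2 in 3. Ciart did not hold in this way: within series 1000 it was -0.23 in PFC, which passed, and at most 0.11 elsewhere, which did not.

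Lists of genes that respond to neuronal activity, to glucocorticoids and to temperature moved with schedule too. The activity list (10 genes, such as Fos and Arc) fell with chronic saline for 8 of 10 genes in PFC, 7 of 9 in VTA, 8 of 10 in AMY and 7 of 10 in Nac, and with chronic cocaine for 9, 8, 8 and 5. The mean log2 CPM of this list in PFC ran from 3.98 to 5.53 with chronic cocaine, 4.02 to 5.46 with chronic saline, 4.87 to 6.44 with acute cocaine and 5.24 to 6.13 with acute saline. The glucocorticoid list (7 genes, Per1 among them) fell for 5 to 7 of 7 genes in every region and both treatments. In AMY its mean ran from 4.47 to 5.14 with chronic cocaine, 4.48 to 5.04 with chronic saline, 4.76 to 5.62 with acute cocaine and 4.87 to 5.48 with acute saline. The temperature list (7 genes) moved both ways: 5, 5, 3 and 4 genes fell and 2 rose in each of AMY, Nac, PFC and VTA with saline. Markers of cell types moved as well: 6 of 6 endothelial markers rose in AMY and 6 of 6 microglial and 6 of 6 dopamine neuron markers rose in VTA under both treatments, and choroid plexus markers fell for 4 of 8 in VTA with saline and 8 of 8 with cocaine. In VTA the mean log2 CPM of the dopamine neuron list ran from 6.95 to 9.0 with chronic cocaine, 7.13 to 8.82 with chronic saline, 6.28 to 8.51 with acute cocaine and 6.12 to 8.3 with acute saline. That of the microglial list ran from 4.22 to 5.39, 4.09 to 5.3, 4.07 to 4.73 and 4.05 to 4.65 in the same conditions. Their part in the differences of the clock genes was not tested.

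Within chronic groups, Per2 was higher with cocaine than with saline in all 4 regions and passed in 2. Of 40 tests 3 passed, all higher with cocaine: Per2 in Nac (0.36, SE 0.08, adjusted p = 0.0179), Per2 in PFC (0.29, SE 0.06, adjusted p = 0.00312) and Cry1 in PFC (0.16, SE 0.04, adjusted p = 0.0179). Among all genes, 7.12% passed in PFC (3.93% higher), 0.151% in Nac (0.0869%), 0.0817% in VTA (0.0408%) and 0.0518% in AMY (0.0288%). In Nac, Per2 had a lowest, median and highest level of 42.5, 60.9 and 101 CPM with chronic cocaine, against 34.0, 53.3 and 64.6 with chronic saline, so the groups overlapped. In PFC, Cry1 had 12.3, 17.4 and 23.5 CPM with chronic cocaine, against 12.9, 15.5 and 18 with chronic saline, an overlap that spans the whole range with saline. Per2 was also higher in AMY (0.15, SE 0.05, adjusted p = 0.407) and VTA (0.09, SE 0.05, adjusted p = 0.989), neither of which passed. Ciart was lower with chronic cocaine in all 4 regions, between -0.14 and -0.04, with no test passed.

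These calls rested on libraries of different series. Within series 1200, the only series with both treatments, Per2 was 0.16 in Nac and 0.15 in PFC and Cry1 0.14 in PFC. There 0 of 40 tests passed, and with series as a term in the model 0 of 40 passed. The shares of all genes that passed in these settings are not given here. In Nac, Per2 averaged 69.6 ± 16.3 CPM in the 21 chronic cocaine libraries of series 1000 and 58.7 ± 5.73 in the 8 of series 1200, against 49.7 ± 8.91 in the 10 chronic saline libraries of series 500 and 53.0 ± 7.48 in the 18 of series 1200. In PFC it averaged 55.7 ± 11.2 CPM in chronic cocaine libraries of series 1000 (n = 20) and 48.1 ± 6.43 in series 1200 (n = 8), against 43.8 ± 5.47 in chronic saline libraries of series 500 (n = 10) and 43.6 ± 5.8 in series 1200 (n = 16). In both regions the mean was higher with cocaine within series 1200, by less than the SD of either group in PFC and by less than that of the saline group in Nac. The call for Per2 in Nac was lost without the libraries that stand apart (0.31, adjusted p = 0.135) and with limma voom (adjusted p = 0.0544). In PFC, 5 of 10 activity genes rose with chronic cocaine, and so did 6 of 8 striatal neuron markers; their part in the result was not tested.

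An acute dose left no member past the threshold. For acute cocaine minus acute saline 0 of 40 tests passed with edgeR, 0 with DESeq2 and 0 with limma voom, and 3 had an unadjusted p under 0.05: Bhlhe41 (0.15) and Cry1 (0.12) in Nac, and Nr1d2 (-0.06) in PFC. Among all genes 0% passed in AMY and Nac, 0.0647% in PFC and 0.0467% in VTA. Dbp lay between -0.05 and 0.08, Ciart between 0.04 and 0.05 and Per2 between -0.02 and 0.03. Within series 1000 alone, Per2 (-0.19, adjusted p = 0.041) and Per3 (-0.14, adjusted p = 0.0437) passed in VTA, where both were lower with cocaine. Per2 in VTA averaged 26.4 ± 2.58 CPM with acute cocaine (n = 16) and 30.4 ± 3.75 with acute saline (n = 12) in series 1000, and 29.8 ± 6.47 (n = 13) and 27.1 ± 4.45 (n = 16) in series 1100. The series thus went opposite ways, but the test of the difference between them passed for 0 of 40 (0 with DESeq2, and 2 at an unadjusted p under 0.05), where 1.29% of all genes passed in VTA and 0% elsewhere. The difference between the chronic and the acute cocaine effect passed for 0 of 40 with edgeR and 0 with DESeq2, and 8 had an unadjusted p under 0.05, Per2 among them in Nac (0.32, SE 0.11, adjusted p = 0.277) and PFC (0.27, SE 0.09, adjusted p = 0.884); 0% of all genes passed in every region.

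No member passed for sex or housing. For female minus male 0 of 40 tests passed with edgeR and 0 with DESeq2, while 13 had an unadjusted p under 0.05; among all genes 0.332% passed in VTA, 1.12% in PFC, 0.272% in Nac and 2.19% in AMY. Nr1d1 was higher in females in all 4 regions (0.02 to 0.07), and Per3 (-0.08 to -0.04) was lower in females in all 4. The lowest p values were those of Cry1 in VTA (-0.09, SE 0.02, adjusted p = 0.121) and Tef in PFC (-0.06, SE 0.02, adjusted p = 0.0654). For isolated minus group-housed 0 of 40 passed with edgeR and 0 with DESeq2, 0 had an unadjusted p under 0.05, and 0% of all genes passed in every region. Per2 (-0.07 to -0.03) and Cry1 (-0.06 to -0.02) were lower in isolated mice in all 4 regions, with no test passed. Whether a cocaine effect differed among the 4 combinations of sex and housing was tested for both schedules, and 0 of 40 passed in each with edgeR and with DESeq2, with 2 at an unadjusted p under 0.05 for acute and 0 for chronic treatment. Among all genes 0.362% passed in VTA for acute and 0.145% in Nac for chronic treatment, and 0% in the other regions.

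Number series and blocks of numbers carried differences within 1 condition. In chronic saline libraries, series 1200 against series 500 gave 7 of 40 passing tests, where 44.1% of all genes passed in Nac, 14.6% in PFC, 4.06% in AMY and 0.0642% in VTA. Ciart was lower in series 1200 in AMY (-0.25, adjusted p = 0.0305) and PFC (-0.35, adjusted p = 0.00248), where it averaged 12.4 ± 1.68 CPM in series 1200 (n = 16) and 15.8 ± 3.76 in series 500 (n = 10). Nr1d1 was lower in PFC (-0.20, adjusted p = 0.00982). In Nac, Tef (-0.26), Bhlhe41 (-0.33) and Nr1d2 (-0.11) were lower and Nr1d1 (0.27, adjusted p = 0.000195) was higher, but 1 library of series 500 decided much of this. In Nac, library N524 had 23.9 CPM of Nr1d1, against 86.7 to 130 in the other 9, and 143 CPM of Bhlhe41, against at most 77.5. Without the libraries that stand apart, Nr1d1 in Nac was -0.27 (adjusted p = 0.00355), Tef -0.23 (adjusted p = 0.0274), Bhlhe41 -0.08 (adjusted p = 0.549), Nr1d2 -0.08 (adjusted p = 0.281) and Cry2 -0.20 (adjusted p = 0.0074), and 597 genes in all passed in Nac, against 7622 with those libraries kept.

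In chronic cocaine libraries, series 1200 against series 1000 gave 1 passing test of 40, Ciart in PFC (0.43, SE 0.09, adjusted p = 0.0117), where 0.00575% of all genes passed in AMY, 0% in Nac and VTA and 0.0647% in PFC. Ciart in PFC averaged 15.8 ± 2.55 CPM in series 1200 (n = 8) and 11.9 ± 1.6 in series 1000 (n = 20). Ciart and Dbp were both higher in series 1200 in all 4 regions, by 0.24 to 0.43 and by 0.11 to 0.28. In acute groups, series 1100 against series 1000 gave 0 of 40 with edgeR and 0 with DESeq2 (2 at an unadjusted p under 0.05), where 5.12%, 1.15%, 2.28% and 0.0817% of all genes passed in AMY, Nac, PFC and VTA. Blocks within a series also differed. In series 1100, Dbp in VTA averaged 28.9 ± 3.11 CPM in the acute cocaine libraries of block 110x (n = 3), against 30.7 and 30.9 CPM in its 2 acute saline libraries, and 17.9 ± 2.09 CPM in the acute saline libraries of block 114x (n = 6). Over blocks of all conditions with at least 3 libraries, mean Dbp in AMY ranged from 23.6 CPM in block 114x to 46.5 in block 57x. It ranged from 40.9 in block 114x to 86.8 in block 57x in Nac and from 21.9 in block 112x to 43.7 in block 108x in PFC. In VTA it ranged from 17.9 in block 114x to 35.9 in block 120x. The lowest block was acute and the highest chronic in every region, so these ranges also hold the difference between schedules. Block 114x (group-housed, acute saline) was the lowest in 3 of 4 regions. With the exception of blocks 110x and 111x, each block holds a single combination of housing, schedule and treatment, and every combination has 3 or 4 blocks. A difference between combinations could thus not be taken within the other blocks, but the spread between blocks of 1 combination could enter the fit. In limma voom with the block as a random effect, 1 correlation of libraries within a block was used for all genes of a region. It was 0.038 in VTA, 0.076 in PFC, 0.091 in Nac and 0.052 in AMY. The spread of Dbp or another member between blocks was not fitted on its own. In that model 16 tests passed for chronic minus acute saline, against 19 in limma voom without the block. For chronic minus acute cocaine 10 passed, against 15. The share of all genes that passed in that model is not given here. Dbp passed in all 4 regions under both treatments and Per2 in 4 with saline and 3 with cocaine, as in edgeR, while Ciart with cocaine passed in 1 region, since its difference in Nac had an adjusted p of 0.07. The other edgeR calls not made there were Nr1d1 in Nac under both treatments, Tef and Per3 in PFC and Cry1 in VTA with saline, and Cry2 in Nac and VTA with cocaine.

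**Figure D3:**
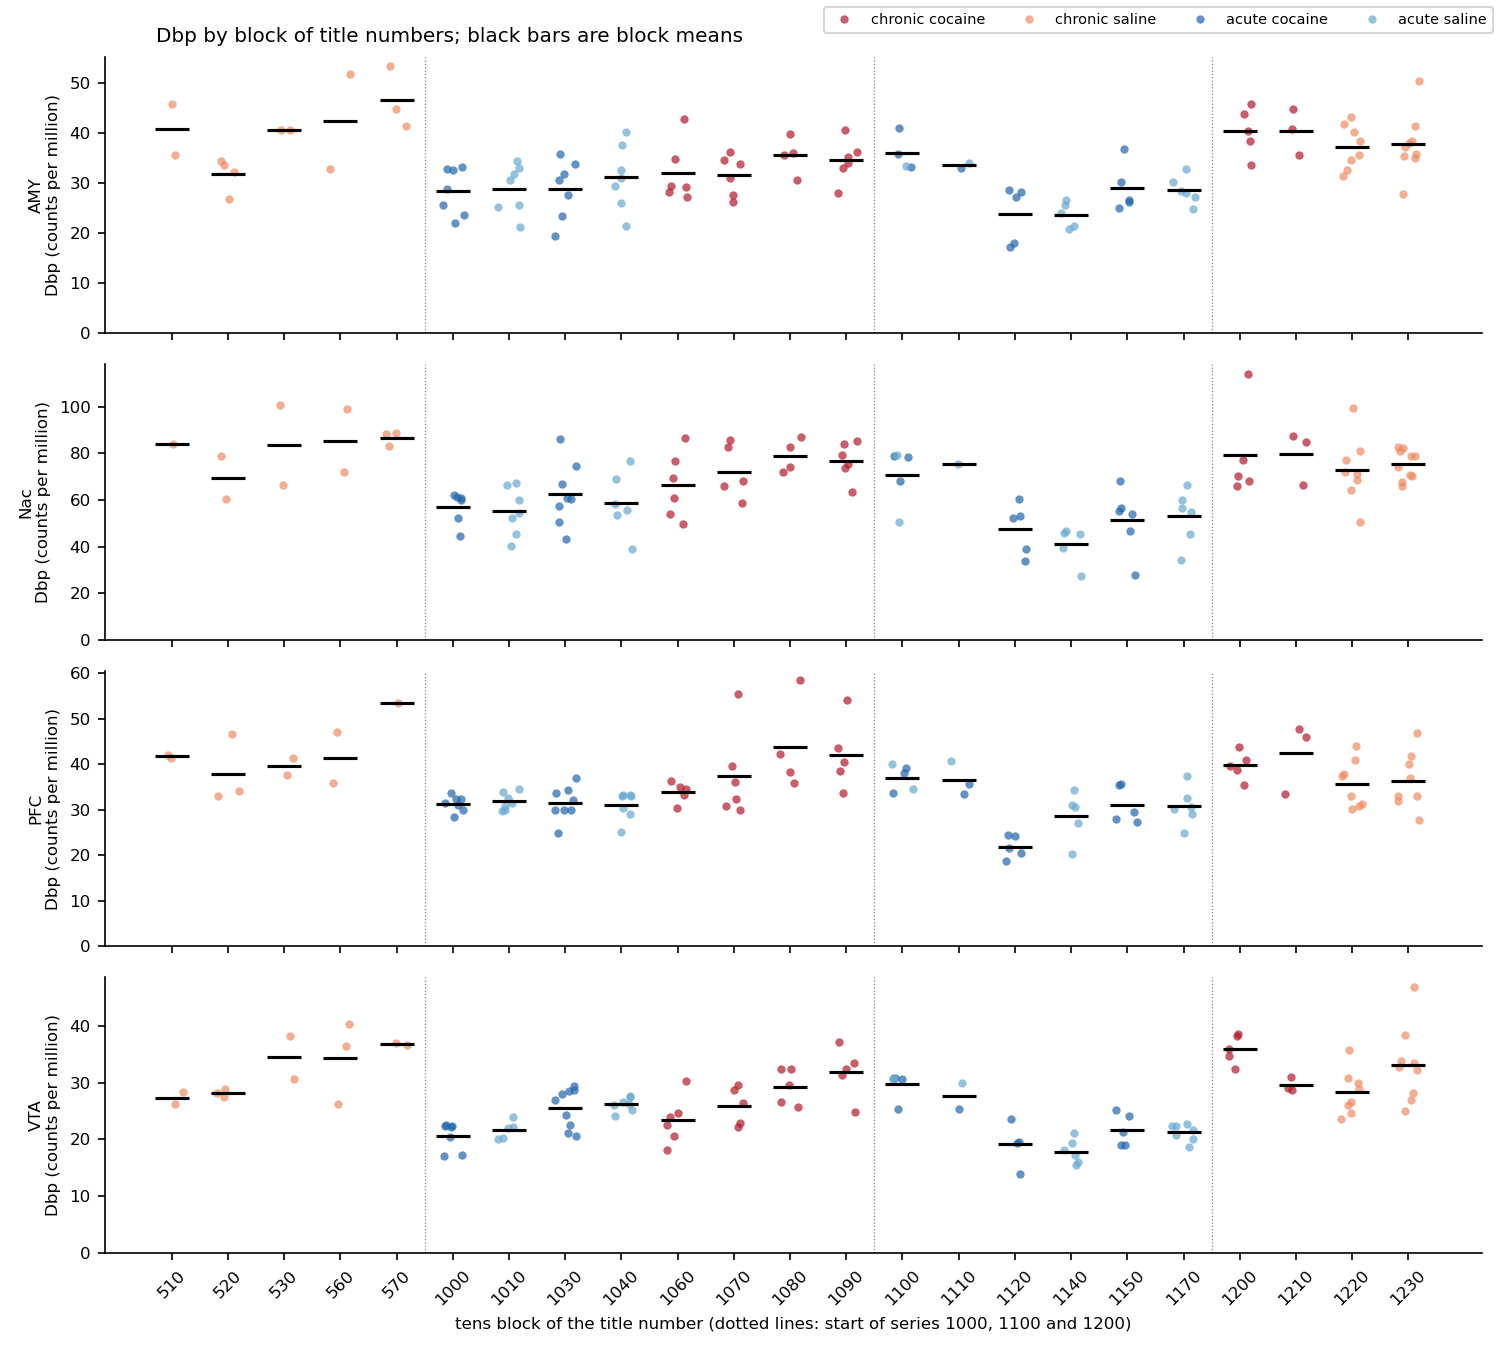
Dbp in CPM (vertical axis) for every library of each region, by block of title numbers (horizontal axis), coloured by condition, with black bars for block means and dotted lines where series 1000, 1100 and 1200 begin. In VTA, block 114x lies lowest, with a mean of 17.9 CPM, and block 120x averaged 35.9 CPM.

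Ciart, Dbp, Cry1, Per2 and Tef each co-varied between at least 1 pair of regions of the same title number, and Per3, Cry2, Nr1d1, Nr1d2 and Bhlhe41 passed in none. For each pair of regions, log2 CPM was centred within each group and number series, so that no difference of sex, housing, treatment, schedule or series remained, and the residuals of libraries with the same number were correlated over 96 to 105 numbers. Of the 60 relations (10 genes in 6 pairs of regions), 58 had r above 0 and 25 had a permutation p under 0.05, with numbers shuffled within group and series. Adjusted over all genes, 8 relations passed: Ciart and Dbp in 2 pairs each, Cry1 in 2, and Per2 and Tef in 1 each. Among all genes, 0.539% passed with r above 0 for AMY and Nac, 1.12% for AMY and PFC, 0.473% for AMY and VTA, 1.65% for Nac and PFC, 0.37% for Nac and VTA and 0.683% for PFC and VTA. The median r of all genes was between -0.02 and 0.055.

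Ciart had the highest r, 0.568 between Nac and PFC over 96 numbers (permutation p = 1e-05, the smallest that 100000 permutations can give; adjusted p = 0.000172), with a Spearman rho of 0.533 (permutation p = 1e-05) and r = 0.522 without the 2 numbers farthest from the median in Nac. Within series 500, 1000, 1100 and 1200 its r was 0.946 (6 numbers), 0.42, 0.682 and 0.468. Between AMY and PFC it was 0.516 (permutation p = 0.00012, adjusted p = 0.00116; rho 0.446, p = 0.00029), with 0.492 without the 2 farthest and 0.854, 0.481, 0.514 and 0.267 within the series. In these 2 pairs, a number with high Ciart in 1 region thus tended to have high Ciart in the other, in each series. The series are parts of the numbers that gave these r values, so they are no separate test. Pairs with VTA did not pass over all genes, with r of 0.254 for AMY, 0.301 for Nac and 0.378 for PFC. Within series 500 these were -0.384, -0.09 and -0.065, so the relation with VTA did not hold in each series.

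Dbp gave r = 0.496 between PFC and VTA over 105 numbers (permutation p = 0.00043, adjusted p = 0.00213; rho 0.486, p = 0.00011), 0.428 without the 2 farthest, and 0.627, 0.377, 0.647 and 0.273 within series 500, 1000, 1100 and 1200. Between Nac and PFC it was 0.449 (permutation p = 0.00018, adjusted p = 0.0153; rho 0.46, p = 0.00017), 0.434 without the 2 farthest, and 0.618, 0.157, 0.667 and 0.419 within the series. Cry1 gave 0.477 between AMY and PFC over 101 numbers (permutation p = 0.00018, adjusted p = 0.00515; rho 0.446, p = 0.00012) and 0.425 without the 2 farthest, but its values within series were uneven, at -0.133, 0.697, 0.065 and 0.411. The relation of Cry1 between PFC and VTA did not pass without the libraries that stand apart (r = 0.376, adjusted p = 0.179). With all libraries it was 0.416 (permutation p = 0.00067, adjusted p = 0.0332; rho 0.374, p = 0.00112), 0.356 without the 2 farthest, and 0.39, 0.589, 0.379 and 0.094 within the series.

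Per2 co-varied between Nac and PFC (r = 0.434, permutation p = 0.00082, adjusted p = 0.0224; rho 0.417, p = 0.00058; 0.369 without the 2 farthest), with -0.725 over the 6 numbers of series 500 and 0.514, 0.441 and 0.339 in series 1000, 1100 and 1200. Tef did so between the same regions (r = 0.408, permutation p = 0.00196, adjusted p = 0.0372; rho 0.368, p = 0.00226; 0.387 without the 2 farthest), with 0.986 over 6 numbers of series 500, 0.492 in series 1000, 0.062 in series 1100 and 0.478 in series 1200. Without the 3 libraries that held transcripts of the other sex, Tef was 0.389 and no longer passed (adjusted p = 0.0702), nor did it with DESeq2 size factors (0.384, adjusted p = 0.0592). Of the 32 values within series for the 8 relations, 30 were above 0. The 8 relations were picked by r over these same numbers, so values mostly above 0 are no separate support for them. Averaged over the 6 pairs, r was 0.388 for Ciart and 0.357 for Dbp, which ranked 82 and 97 among 16209 genes, 0.278 for Cry1 (rank 184) and 0.255 for Tef (rank 242). It was 0.213 for Per3, 0.207 for Bhlhe41, 0.201 for Per2, 0.131 for Nr1d1, 0.092 for Nr1d2 and 0.089 for Cry2, where the median gene had 0.019.

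**Figure D4:**
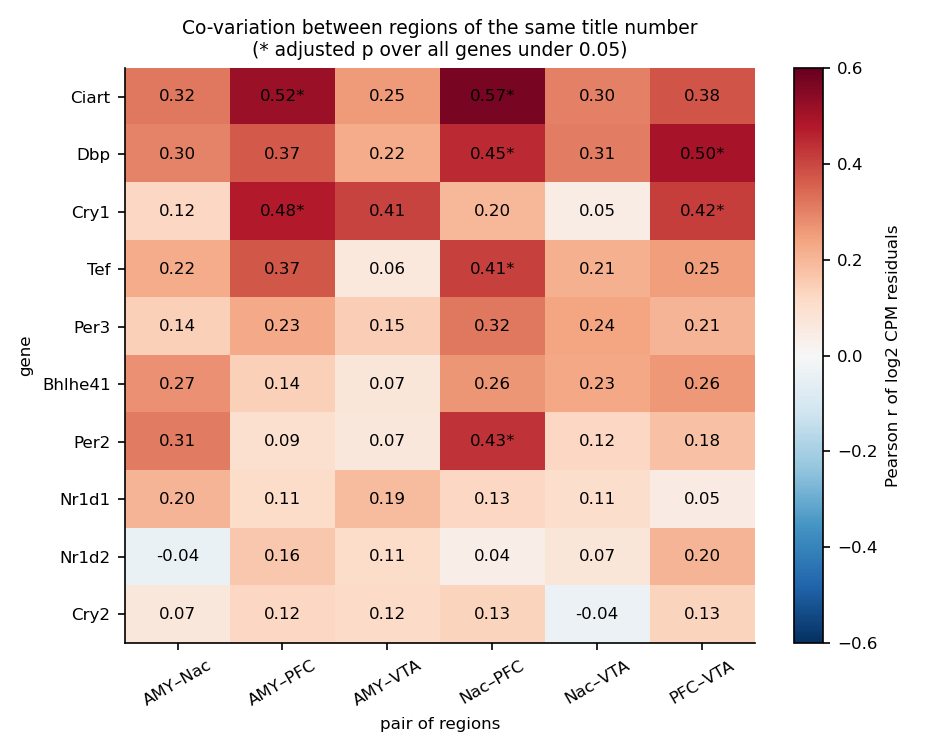
Pearson r between regions of the same title number for each gene (rows) and pair of regions (columns), on log2 CPM residuals from group and number series, with an asterisk where the p adjusted over all genes is under 0.05. Ciart, Dbp and Cry1 hold 6 of the 8 marked cells, up to 0.57 for Ciart in Nac and PFC.

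**Figure D5:**
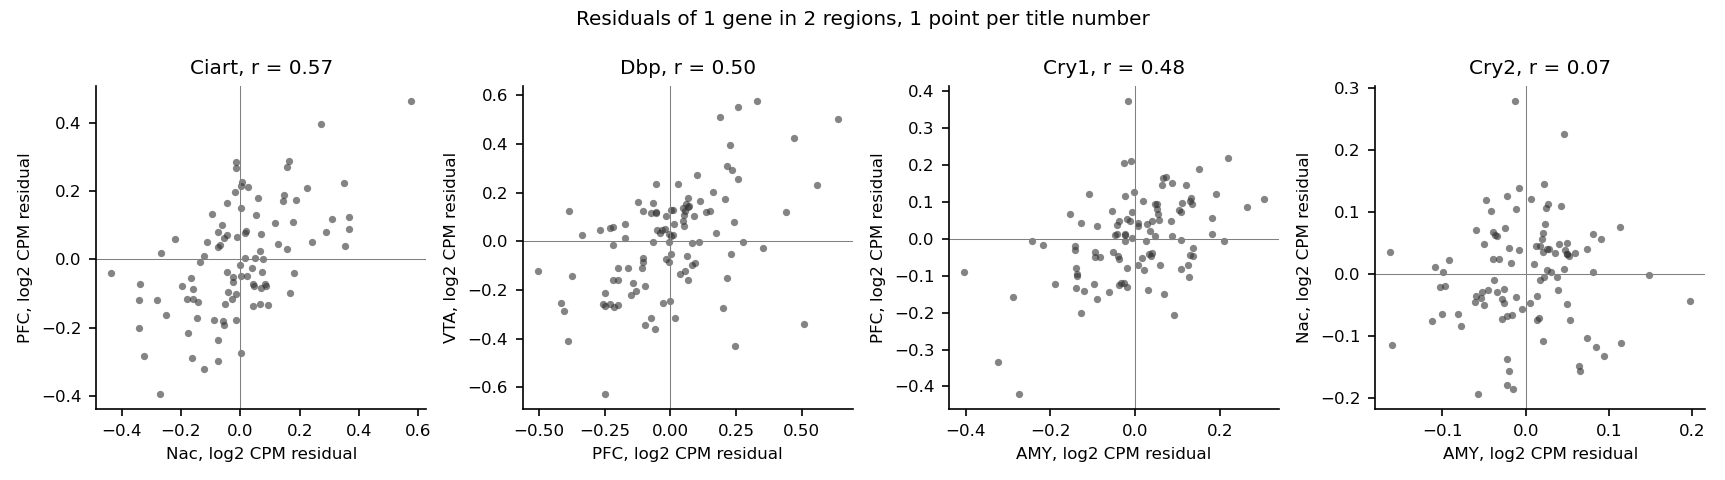
Log2 CPM residuals of 1 gene in 2 regions, with 1 point per title number: Ciart in Nac and PFC, Dbp in PFC and VTA, Cry1 in AMY and PFC, and Cry2 in AMY and Nac as a member with low r. The cloud rises from lower left to upper right for Ciart (r = 0.57) and not for Cry2 (r = 0.07).

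Residuals from group and series still hold the blocks of numbers. When log2 CPM was centred within block and sex instead, 50 of 60 relations remained above 0 and 0 passed over all genes; Ciart between Nac and PFC was 0.358, Tef between the same regions 0.433, Cry1 between AMY and PFC 0.426 and Dbp between PFC and VTA 0.142. Among all genes, 0.156 to 0.535% passed with r above 0 in that design, depending on the pair of regions. That design leaves fewer numbers to each mean, and the cause of the lower values was not tested. Of the other listed clock genes, Arntl (mean r 0.472, rank 50), Per1 (0.387, rank 83) and Nfil3 (0.313, rank 139) also had a high mean r over the 6 pairs, and Clock did not (-0.07). The lists that respond to glucocorticoids (r from 0.623 to 0.743 between regions), activity (0.372 to 0.689) and temperature (0.351 to 0.667) co-varied between the same numbers, and their part in the relations of the clock genes was not tested. Over the 110 to 114 libraries of a region, and as a description of values that share a library, residuals of Per2 followed the activity list with r of 0.46 in VTA, 0.37 in PFC, 0.56 in Nac and 0.22 in AMY, and those of Dbp followed the glucocorticoid list with r of -0.19, -0.35, -0.19 and -0.32. Lists of cell type markers were as close: Per2 followed the oligodendrocyte list with r of -0.52 in VTA, -0.35 in PFC, -0.50 in Nac and -0.46 in AMY. Ciart followed the astrocyte list with r of -0.66 in VTA, -0.21 in PFC, -0.33 in Nac and -0.45 in AMY, and Cry1 the striatal neuron list with 0.38, 0.29, 0.66 and 0.31. The part of these cell types in the values of the clock genes was not tested.

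Some members follow the dependence of a library's counts on the GC content of genes, a measure computed from the counts themselves. Whether it is technical was not tested. Within a region, residuals of Dbp correlated with the GC slope of the library with r of 0.33 in VTA, 0.59 in PFC, 0.46 in Nac and 0.41 in AMY, and those of Nr1d2 with -0.54, -0.72, -0.67 and -0.45. The slopes of libraries with the same number correlated between regions with r from -0.164 to 0.14. In checks chosen after seeing the data, the slope was taken out. With it removed from the residuals, 9 member relations passed instead of 8: Dbp between AMY and VTA (0.427) and Nr1d2 between Nac and PFC (0.436, instead of 0.041) were gained, and Tef between Nac and PFC (0.382, adjusted p = 0.0619) was lost. Dbp between PFC and VTA was 0.652. With the slope removed, 0.557 to 1.83% of all genes passed with r above 0, depending on the pair of regions. With the slope as a covariate in edgeR, Dbp in chronic minus acute comparisons was 0.27 to 0.44 with saline and 0.30 to 0.40 with cocaine, and passed in all 4 regions.

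Genes most like Dbp across libraries were sought by the mean over 4 regions of the correlation of residuals, among 13652 genes with at least 1 CPM. The highest were Jund (0.656), Scand1 (0.638), C1qtnf4 (0.630), Pcsk1n (0.625) and Ssbp4 (0.615), and the lowest Tmem33 (-0.482), Map4k3 (-0.479) and Papola (-0.476). The 8 highest had a GC content of 54.8 to 70.7% and the 5 lowest of 37.8 to 44.8%, so both ends of this order also differ in GC content. The members highest in this order, Ciart (52.2% GC) and Bhlhe41 (47.5%), ranked 62 and 162. Those lowest, Nr1d2 (41.8%) and Per2 (54.3%), ranked 6435 and 10132. The part of GC content in this order was not tested. Among the members, Ciart was closest to Dbp (0.475, rank 62), followed by Bhlhe41 (0.406), Tef (0.368), Per3 (0.277), Cry2 (0.275), Nr1d1 (0.214) and Cry1 (0.132), with Nr1d2 at 0.003 and Per2 at -0.131. Of the listed activators, Arntl (-0.329, 48.2% GC) and Clock (-0.393, 40.9% GC) ran against Dbp. Npas2 (52.3% GC) had a mean of -0.042, with 0.231 in Nac and -0.355 in VTA.

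The 16 other clock genes of the list, from activators (Arntl, Clock, Npas2) and ROR receptors to kinases (Csnk1d, Csnk1e) and F-box proteins, fell more often than they rose with chronic treatment. With saline, 2 rose and 6 fell in VTA, where 43.6% of all genes passed, 1 and 7 in PFC (23.3% of all genes), 1 and 4 in Nac (20.9%) and 2 and 6 in AMY (20.4%). With cocaine, 2 rose and 8 fell in VTA (38.2% of all genes), 0 and 5 in PFC (18.5%), 1 and 3 in Nac (24.3%) and 2 and 5 in AMY (18.4%). The 8 of 16 that passed in VTA with saline and the 4 of 16 in Nac with cocaine are near the share of all genes. Nfil3, which encodes a repressor that competes with DBP at D-boxes, fell in all 4 regions under saline (-0.50 to -0.38) and cocaine (-0.54 to -0.30). Per1, a period gene that responds to activity and glucocorticoids, fell in AMY, PFC and VTA, at -0.38, -0.65 and -0.53 with saline and -0.44, -0.70 and -0.66 with cocaine. Bhlhe40, the paralog of Bhlhe41, fell in AMY, Nac and PFC (-0.23, -0.16 and -0.57 with saline, and -0.24, -0.20 and -0.50 with cocaine). Hlf, a PAR bZIP relative of Dbp, fell in VTA (-0.29 with saline and -0.24 with cocaine), and Csnk1d, a kinase of PER proteins, fell in AMY (-0.10 and -0.12) and PFC (-0.11 and -0.12) under both and in Nac with cocaine (-0.06). Arntl, named after its values were seen, fell in AMY, PFC and VTA (-0.17, -0.11 and -0.22 with saline, and -0.15, -0.17 and -0.18 with cocaine). For chronic cocaine minus chronic saline, Npas2 (-0.12) and Usp2 (-0.10) fell in PFC and no other listed gene passed.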

How the data were processed

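Brain tissue of 4 regions was sequenced from 300 ng of RNA with a stranded mRNA kit, 21 libraries to a pool, as 50-base single ends, per the labels' protocols. The authors deposited 1 table of raw counts per gene and library. STAR, featureCounts, limma and the GRCm38 (mm10) build are named in the submitters' processing notes, which give no tool versions and no strand setting. Each column was matched to a library by its title, and 0 columns were left without a sample.

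Counts were tested region by region with edgeR 4.0.16 in R 4.3.3 (TMM scaling, filterByExpr, robust quasi-likelihood, 16 group means), with Benjamini-Hochberg adjustment over the 17003 to 17391 genes tested and a threshold of 0.05. Comparisons of number series used group by series means. Levels are CPM, and log2 CPM used a prior count of 2. Co-variation used residuals from group and series means, with 100000 permutations within these cells (Python 3.11.15, scipy 1.17.1). The edgeR step was tested on simulated data. Alternatives were DESeq2 1.42.0, limma 3.58.1 voom, voom with the block as a random effect, other scaling and no filter, number series as a term or 1 series alone, leaving out libraries and, chosen after seeing the data, the GC slope of each library and leaving out the 3 libraries with transcripts of the other sex. Libraries stood apart at a robust z over 5 on 4 principal components of 3000 genes, or over 8 on a marker list. All members are named in every comparison; of the other 16 clock genes, up to 4 with the lowest p; of genes like Dbp, the 8 highest and 5 lowest. The members and lists were chosen with earlier results of these data known.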

Additional observations from a re-analysis of the deposited data

Results flagged for a closer look

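Checks covered only sets of 4 to 10 libraries, and blocks for Dbp only. Of 121 such checks for a library far from the rest of its condition and series or block, 8 found one, where chance flags about 1 in 20 groups. Library N524 of Nac (isolated female, chronic saline, series 500, 10 libraries) accounted for 4. It had 23.9 CPM of Nr1d1, where the nearest library had 86.7, and 123 CPM of Cry2, where the nearest had 155. It had 143 CPM of Bhlhe41, where the nearest had 77.5, and 37.6 CPM of Cry1, where the nearest had 31.6. This library also stood apart on a principal component of all genes. Larger sets were not checked. Among them, Per3 in Nac with chronic cocaine in series 1000 (21 libraries) had a median of 66.2 CPM and a highest level of 172.

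Library N1200 of Nac (chronic cocaine) had 114 CPM of Dbp, where the nearest of the 8 libraries of series 1200 had 87.6 and the nearest of the 5 in its block had 77.4. Library P571 of PFC (chronic saline) had 34.7 CPM of Bhlhe41, where the nearest of the 10 libraries of series 500 had 28.3. Library P1070 of PFC (chronic cocaine) had 55.4 CPM of Dbp, where the nearest of the 6 libraries of its block had 39.5.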

How the results depend on the processing

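The schedule comparisons and co-variation depended most on how the series and blocks of title numbers were treated. With number series as a term, 3 tests passed instead of 20 for chronic saline minus acute saline, and 0 instead of 3 for chronic cocaine minus chronic saline. The shares of all genes that passed under this term are not given here. Under that term the chronic saline difference turned for Ciart in AMY (-0.15), Nac (-0.06) and PFC (-0.56, which passed), Per2 in Nac (0.01), Per3 in PFC (-0.02), Nr1d1 in VTA (-0.1) and Cry2 in VTA (-0.03); the saline schedules share no series. For chronic cocaine minus chronic saline 0 passed in series 1200 alone, which has fewer libraries, and 1 with limma voom and the block as a random effect. For acute cocaine minus acute saline 2 passed in series 1000 alone, instead of 0. For female minus male 1 passed with the GC slope as a covariate (Tef in PFC), instead of 0. Nr1d1 in Nac, series 1200 minus series 500, was -0.27 without the libraries that stand apart, instead of 0.27. The number of co-variation relations that passed was 14 with residuals from the 16 groups, 0 with residuals from block and sex and 3 with the numbers found in all 4 regions, instead of 8. Among all genes, 0.733 to 5.65% passed with the 16 groups, depending on the pair of regions, instead of 0.37 to 1.65%. The shares were 0.156 to 0.535% with block and sex and 0.242 to 0.628% with the numbers found in all 4 regions. Where no sentence names one, the cause was not tested.

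Of the counts recomputed, 147 stayed within 1.5 times the reported count and 9 did not. Of the single values, 4142 stayed on the same side of the threshold, 73 lost and 27 gained a call and 8 turned. Direction was compared only where a value passed in at least 1 of the 2 settings. Each library of the smallest group (isolated males of AMY, acute cocaine, 5 libraries) was left out in turn, and only AMY was refitted. AMY then had 3 to 4 calls for chronic saline minus acute saline, against 3 with all libraries. For chronic cocaine minus acute cocaine it had 2 to 3, against 2. With the title number as a replicate block, 57 region differences passed, as without the block, and no call changed. No other paired analysis was possible because groups within a region share no title numbers.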
